A study of Mus musculus with 2 samples.

Results

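Intergenic Sap130 summits are the positions of strongest Sap130 signal that lay in no annotated gene and more than 1000 bp from every gene boundary. They numbered 261 of the 14881 summits on nuclear chromosomes (1.75%, Wilson 95% interval 1.56 to 1.98), called in the E12.5 heart of C57BL/6 mice. The list came from 1 chromatin immunoprecipitation (ChIP) library, pulled down by a rabbit anti-Sap130 antibody (2 µg), set against 1 library of input DNA made without antibody. Stage, tissue and strain were the same for both, no genetic change was named for either, and how many hearts were pooled is not stated in the labels. The series examined where Sap130 sits in the embryonic heart. A peak list holds no measure that could check the labelled tissue.

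Sap130 is a subunit of the Sin3 corepressor complex, which carries histone deacetylases and removes acetyl groups from histone tails. Sin3 itself does not read DNA sequence and is brought to chromatin by transcription factors and other proteins. It is best known at the starts of active and repressed genes. DNA between genes holds enhancers, insulators and starts of transcripts that an annotation may not include, such as the long primary transcripts from which microRNAs are cut.

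Members were chosen by position alone, so the score of a summit was not used to choose it. The score is the authors' own value per summit, −log10 p or q (which of them is not settled) for ChIP over input, and is used here to rank summits within this list. There was no replicate and read depth was unknown, so all intervals cover counting error only and treat neighbouring summits as independent, which they are not. No test between classes of summits was made, because summits of 1 library are not replicates. Just past the 1000 bp margin lay summits at 1007 bp from Rasd2 (score 13.4), 1018 bp from Kif26b (59.6), 1023 bp from Hes1 (29.3), 1028 bp from Gprin1 (28.8) and 1032 bp from Cited2 (5.74). Just within it, and so not members, lay summits at 985 bp from Skil (6.99), 956 bp from Ankhd1 (74.5), 947 bp from Hand1 (5.81), 944 bp from Sox12 (31.1) and 941 bp from Ube2r2 (15.3).

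The annotation listed 4 genes without coordinates, and a summit at any of them would be counted as intergenic. For 2 members it could not be settled whether they lie at such a gene, and they are not described. Without them there were 259 members (1.74%), with the same median score of 12.8.

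MicroRNA genes were the nearest genes to some of the strongest intergenic summits. MicroRNAs are short RNAs that silence messenger RNAs by pairing through their seed, bases 2 to 8. A microRNA gene was the nearest gene for 13 of the 261 members (4.98%, Wilson interval 2.93 to 8.33), at 8 loci. The share was 1.08% for summits just outside a gene and 0.175% for all nuclear summits, most of which lie inside a gene and take that gene as nearest. MicroRNA genes made up 2.48% of the genes used. These loci hold 20 microRNA genes within 5000 bp of the nearest one. RefSeq sequences on build GRCm38.p6 were at hand for 18 of them, all but Mir30b and Mir30d. The mature RNAs below are those of the loci that the summits stood next to, on the arm usually taken as the main product, 5′ to 3′, with the seed in capitals.

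At the Mir17 locus on chromosome 14, miR-17 and miR-20a share the seed AAAGUGC, and miR-19a and miR-19b share GUGCAAA.
mmu-miR-17-5p: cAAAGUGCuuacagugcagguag
mmu-miR-20a-5p: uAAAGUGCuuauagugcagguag
mmu-miR-18a-5p: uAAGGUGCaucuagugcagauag
mmu-miR-19a-3p: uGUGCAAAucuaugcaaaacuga
mmu-miR-19b-3p: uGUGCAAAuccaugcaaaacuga
mmu-miR-92a-3p: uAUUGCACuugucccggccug

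At the let-7 locus on chromosome 13, all 3 members share the seed GAGGUAG.
mmu-let-7a-5p: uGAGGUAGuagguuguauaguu
mmu-let-7f-5p: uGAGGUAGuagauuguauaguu
mmu-let-7d-5p: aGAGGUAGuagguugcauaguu

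On chromosome 8, miR-181c and miR-181d share the seed ACAUUCA, while miR-23a, miR-27a and miR-24 of the neighbouring locus differ in seed.
mmu-miR-181c-5p: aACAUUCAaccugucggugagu
mmu-miR-181d-5p: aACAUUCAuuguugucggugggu
mmu-miR-23a-3p: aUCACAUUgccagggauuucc
mmu-miR-27a-3p: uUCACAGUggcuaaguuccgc
mmu-miR-24-3p: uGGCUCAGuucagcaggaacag

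Mir125b-2, Mir137 and Mir7-2 each had a single summit, with a score under 10, and their main products share no seed with those above.
mmu-miR-125b-5p: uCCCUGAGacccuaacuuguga
mmu-miR-137-3p: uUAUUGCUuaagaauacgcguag
mmu-miR-7a-5p: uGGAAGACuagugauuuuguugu

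The miR-17 to miR-92a cluster is a polycistron known to favour cell division and to be needed for normal heart development. It had 2 intergenic summits. The higher, with a score of 144, was at chromosome 14, position 115042335, 1336 bp upstream of the Mir17 hairpin (115043671 to 115043754, plus strand), and ranked 370th of all nuclear summits. The lower, with a score of 99.2, was at 115041052, 2619 bp upstream and 1283 bp from the first. The nearest protein-coding gene, Gpc5, started 49866 bp beyond the higher of them and had no summit of its own.

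The let-7 family is known for its rise as tissues mature and for silencing fetal growth genes. Upstream of Mirlet7a-1 (chromosome 13, 48538179 to 48538272, minus strand) stood summits of 50.1 at 48545546 and 102 at 48546268, 7274 and 7996 bp from the hairpin. A second let-7 locus, of Mirlet7c-2 on chromosome 15, had a pair of members of 37.9 and 31.5 at 35124 and 35671 bp upstream, though their nearest gene was the lncRNA gene D130051D11Rik. Members of both let-7 pairs thus lay on the upstream side of their hairpins.

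A stretch of chromosome 8 held 4 members between the Mir181c and Mir23a hairpins. The miR-23a, miR-27a and miR-24 cluster is known from endothelial and cardiac growth studies. The summits stood at 4861, 7490 and 10965 bp upstream of Mir23a (84208518 to 84208592, plus strand) and scored 5.15, 48.9 and 22.3. A summit of 43.0 stood 4781 bp upstream of Mir181c (84178873 to 84178961, minus strand), which is transcribed away from Mir23a. Scores in this stretch thus ran from near the low end of the list to above 33.3, the median of all nuclear summits.

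On chromosome 15, Mir30d had summits of 68.5 and 25.4 at 21303 and 21926 bp, and its strand was not in the tables used. Low scores stood 1869 bp upstream of Mir125b-2 (9.89), 3804 bp upstream of Mir7-2 (9.80) and 2273 bp upstream of Mir137 (9.04). All 11 of the 13 summits whose hairpin had a known strand were on its upstream side. The median score of the 13 was 43.0, against 12.8 for all members and 33.3 for all nuclear summits, and 7 of them were at or above the latter. Nearness to a microRNA gene as such was close to the background: 41 members (15.7%, Wilson interval 11.8 to 20.6) had a microRNA gene within 50000 bp, against 12.8% of all nuclear summits. Of these 41, 36 had a known side, and 27 were upstream (75%, Wilson interval 58.9 to 86.2). Among all nuclear summits with a microRNA gene within 50000 bp and a known side, 59.5% were upstream, which lies within that interval.

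**Figure D1:**
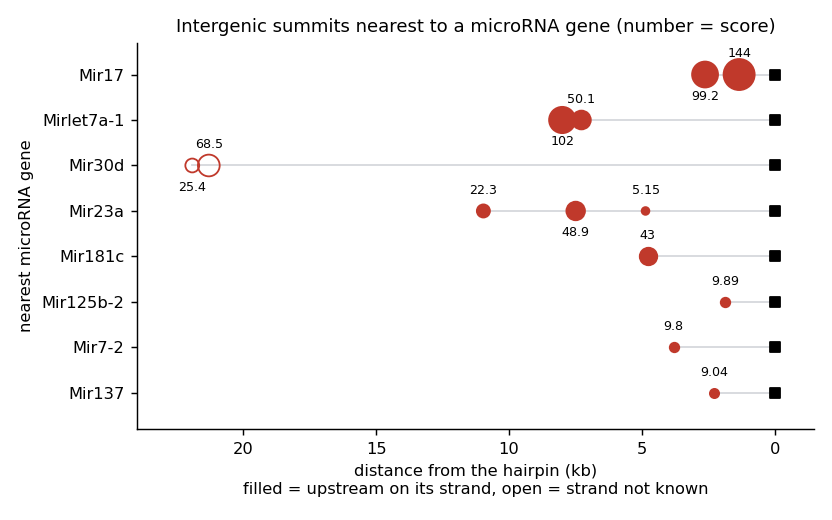
Intergenic summits whose nearest gene is a microRNA gene, by distance from the hairpin in kb (x axis) at each of 8 loci (y axis). Black squares are hairpins, circle area grows with the score, which is printed beside each, filled circles are upstream on the hairpin's strand and open circles have no known strand; the highest scores, 144 and 102, are at Mir17 and Mirlet7a-1.

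Scores of intergenic summits were low for this list. They ran from 2.93 to 154, with a median of 12.8 (95% interval of the median by order statistics 11.3 to 15) and quartiles of 7.73 and 22.5. Over all nuclear summits the median was 33.3 (32.4 to 34.1), with quartiles of 13.9 and 65.2. Only 39 of 261 members (14.9%, Wilson interval 11.1 to 19.8) were at or above that median, which 50% of all nuclear summits reach. The upper quartile was reached by 13 members (4.98%, interval 2.93 to 8.33) against 25.1% of all. A score of 50 or more was found for 19 members (7.28%), against 35.7% of all, and one under 10 for 104 (39.8%), against 17.0%.

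The classes nearest in kind had higher medians. Summits outside every gene but within 1000 bp of one numbered 1111, with a median score of 15.7 (14.8 to 16.8), and 22.4% of them (interval 20.1 to 25) reached the median of all. Summits deep inside a gene, more than 1000 bp from any boundary, numbered 2956, with a median of 18.1 (17.0 to 19.1) and 32.1% (30.4 to 33.8). Summits inside a gene and near a boundary numbered 10553, with a median of 42.1 (41.2 to 43.4) and 58.8% (57.9 to 59.7). The median intervals of the intergenic and just-outside classes overlapped, from 14.8 to 15.

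**Figure D2:**
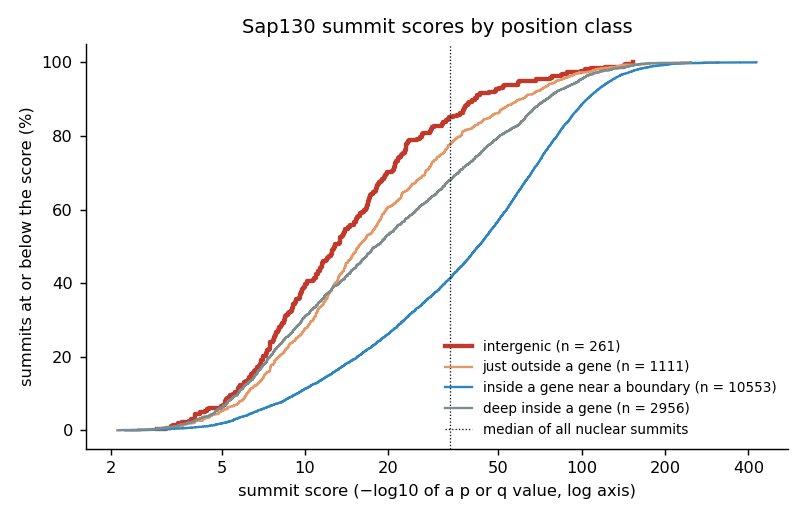
Cumulative share of summits (y axis, percent) at or below each score (x axis, −log10 p or q, log axis) in 4 position classes, with the median of all nuclear summits as a dotted line. The intergenic curve, with a median of 12.8, lies left of the curve for summits inside a gene near a boundary, with a median of 42.1.

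The strongest intergenic summits next to protein-coding genes stood far above the upper quartile of the class, 22.5. The highest, of 154, was at chromosome 7, position 6410226, 4968 bp upstream of Smim17 (6415194 to 6431086), and ranked 271st of all nuclear summits. Foxo3, a forkhead factor restrained by insulin signalling, had a summit of 142 at 1645 bp upstream (chromosome 10, 42278340). Vstm2l had one of 122 at 1226 bp (chromosome 2, 157913427), where the strand of the gene was not known. At Foxo3 and Vstm2l the intergenic score was above that of the summit at an end of the gene, 73.8 and 9.71.

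Igf2bp1, an RNA-binding protein gene of fetal tissues, had a summit of 85.2 at 1520 bp from its boundary (chromosome 11, 96007464). A summit of 99.4 also stood deep inside the gene. Igf2bp3, its relative, had members of 41.2 and 15.4 at 2901 and 2341 bp upstream (chromosome 6) and a higher summit, of 77.8, inside the gene. Efna5, an ephrin ligand of axon and vessel guidance, had members of 77.8 and 7.04 at 1585 and 2689 bp upstream, beside a summit of 76.1 at an end of the gene. Kif26b, of the kinesin family, had 59.6 at 1018 bp upstream and no other summit. Msl1, the scaffold of a histone acetyltransferase complex, had 58.6 at 4238 bp upstream and a higher summit, of 87.4, inside the gene. Tlcd3b had 88.5 at 4974 bp upstream and no summit of its own.

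A pair of high scores stood far from any gene. The summit of 84.1 on chromosome 2, position 38418157, was 48420 bp downstream of Lhx2, a LIM homeobox factor gene, in a 98539 bp gap before Nek6. That of 76.7 on chromosome 4, position 133910919, was 23122 bp upstream of Rps6ka1, a kinase of the MAP kinase pathway. The member farthest from any gene, 131089 bp from the lncRNA gene Gm34187 on chromosome X, scored 7.66. The others beyond 50000 bp, leaving out the 2 members not described, were 99155 bp from Irx5 (17.2), 56265 bp from Crisp4 (3.49) and 53778 bp from Rragc (12.0). The lowest scores in the class were 2.93 at 1184 bp from Mllt6, 3.16 at 4835 bp from Fcgr1 and 3.28 at 1443 bp from Nkx2-5.

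Most intergenic summits lay within 5 kb of a gene boundary. Positions drawn evenly from the gaps between genes were not compared, so closeness beyond what the gaps give was not tested. The median distance to the nearest gene boundary was 4367 bp, with quartiles of 1990 and 10942 bp. Of the 261, 145 (55.6%) were 1 to 5 kb away, 84 (32.2%) 5 to 20 kb, 31 (11.9%) 20 to 100 kb and 1 over 100 kb. Median scores were 13.4 in the first of these classes and 12.0 in the third, and the second lay between them. The gap between genes that held a member had a median length of 33980 bp, and the member stood at a median of 21.9% of the gap from its nearer end.

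The nearest gene was protein-coding for 166 members (63.6%), a lncRNA gene for 55 (21.1%), a pseudogene for 22 (8.43%) and a microRNA gene for 13. Median scores were 13.9, 9.81, 12.4 and 43.0 in that order. Of the 55 next to a lncRNA gene, 1 reached the median of all nuclear summits, and the highest scored 37.9.

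**Figure D3:**
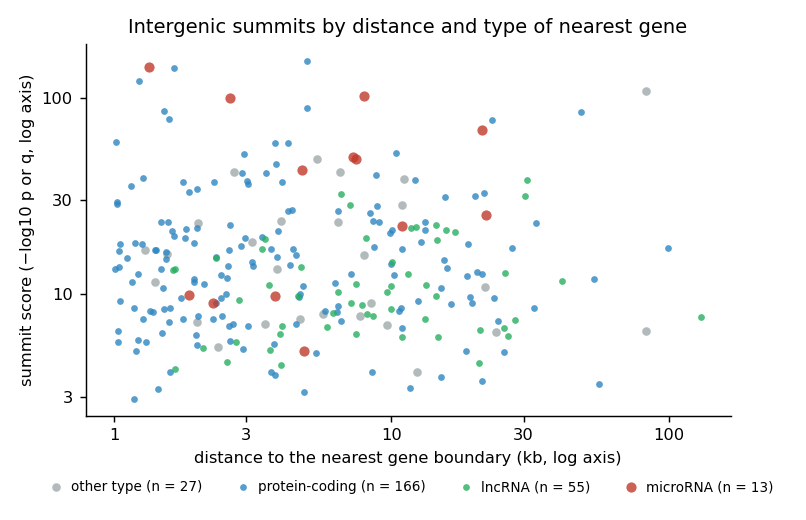
Score (y axis, −log10 p or q, log axis) of each of 261 intergenic summits against its distance to the nearest gene boundary (x axis, kb, log axis), coloured by the type of that gene. Of the 13 points next to microRNA genes, 7 are at or above 33.3, the median of all nuclear summits, and the single point beyond 100 kb scores 7.66.

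The side of the gene on which a member lay was known for 203 members, whose nearest protein-coding gene had a strand in the promoter table. Of these, 112 were upstream of the gene (55.2%, Wilson interval 48.3 to 61.9) and 91 downstream. At 1 to 5 kb, 58 of 92 were upstream (63.0%, 52.8 to 72.2), at 5 to 20 kb 29 of 55 (52.7%, 39.8 to 65.3), and at 20 to 100 kb 22 of 49 (44.9%, 31.9 to 58.7). The intervals of the last 2 classes hold an even split. Among summits just outside a protein-coding gene, within 1000 bp, 738 of 782 were upstream (94.4%, 92.5 to 95.8). At 1 to 5 kb, 13 of the 58 upstream members and 2 of the 34 downstream ones reached the median score of all nuclear summits. Of all members, 14.9% reached it. Among the summits just outside a protein-coding gene, 187 of the 738 upstream and 2 of the 44 downstream ones did. This split is thus not particular to intergenic summits.

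**Figure D4:**
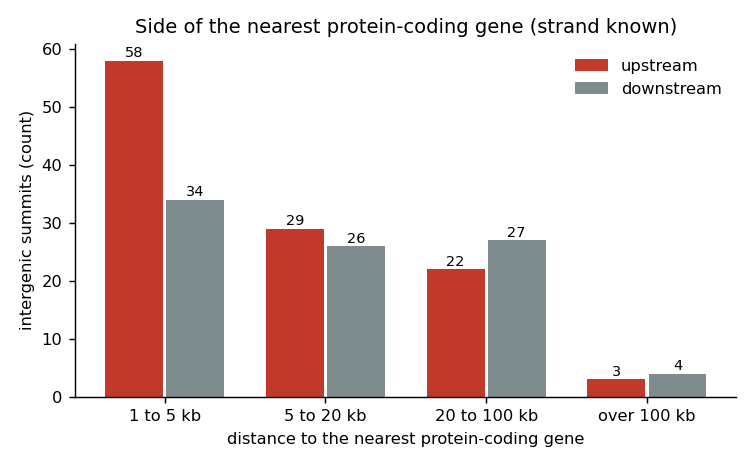
Number of intergenic summits (y axis) upstream and downstream of the nearest protein-coding gene, by distance from it (x axis), for the 203 members whose gene had a known strand. Upstream summits outnumber downstream ones at 1 to 5 kb, 58 against 34, and not at 20 to 100 kb, 22 against 27.

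Genes next to intergenic summits often carried a summit of their own. The 261 members had 222 nearest protein-coding genes, of which 189 had 1 member, 28 had 2, 4 had 3 and 1, Bahcc1, had 4. For 187 members (71.6%, Wilson interval 65.9 to 76.8) that gene also had a summit within 1000 bp of an end, which 48.4% of all protein-coding genes have. Another 34 members (13.0%) had one deeper inside the gene and 40 (15.3%) had none. The score at the gene end, taken as the highest within 1000 bp of either end, was the higher in 158 of the 187 (84.5%). Its median over these 159 genes was 46.7, against 49.3 over all 10529 protein-coding genes with such a summit. Some summits at gene ends are shared with a neighbouring gene.

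Of 115 members within 5 kb of a protein-coding gene, 15 (13.0%, against 15.3% of all members) stood next to one with no summit of its own. Beside Smim17, Tlcd3b and Kif26b, they included members at Lin28a, a let-7 blocking factor (21.0 at 1625 bp upstream), Mos, a kinase of oocyte maturation (17.6), and Rasd2 (13.4 at 1007 bp upstream). Etv1, an ETS factor activated by Fgf signalling, had 15.3 and 9.56 at 1110 and 1748 bp upstream. Sp8, a zinc finger factor of limb outgrowth, had 13.9 at 2584 bp downstream.

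Many intergenic summits had another summit within 10000 bp, but not more often within 1000 bp than summits at large. Another summit of any class lay within 10000 bp for 149 members (57.1%, Wilson interval 51.0 to 62.9), against 48.1% of all nuclear summits. That share was higher still for summits just outside a gene (79.8%) and deep inside one (60.3%). For those inside a gene near a boundary it was 41.1%, so a neighbour at this distance is not particular to intergenic summits. Within 1000 bp the shares were 21.5% (16.9 to 26.8) and 28.8%, within 2500 bp 36% and 37.8%, and within 50000 bp 82.8% and 75.6%. For 70 of the 149 (47.0%) the nearest other summit was itself intergenic. How often the nearest summit is of the same class was not counted for the other classes. Members within 10000 bp of each other formed 33 groups holding 73 members, so the 261 stood at 221 separate loci. Of the groups, 27 were pairs, and 19 of the pairs spanned at most 1000 bp. Whether close summits came from 1 called peak is not recorded in the list.

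Beyond the microRNA loci, and leaving out the 2 members not described, which formed a pair of higher score, the groups with the highest scores were at Efna5, near Bcl9l, a Wnt cofactor gene (41.7 and 23.0 at 3521 and 4221 bp, chromosome 9), and at Ccnd1, of cyclin D1 (41.3 and 23.2 at 3530 and 1571 bp, chromosome 7). The largest group held 4 members over 11447 bp downstream of Bahcc1 on chromosome 11, with scores of 18.5, 23.3, 18.1 and 7.31. The summit at an end of Bahcc1 scored 4.43, below all of them.

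Among heart transcription factor genes, 10 of 69 listed were the nearest protein-coding gene of a member (14.5%), against 1.02% of all protein-coding genes. The length of the gaps around genes was not matched in this comparison. All gene lists were chosen with earlier results of these data known, and enrichment was not tested. They had 12 members with a median score of 12.0, near the 12.8 of all members, and none reached 33.3. The highest was 21.9 at 119005 bp upstream of Klf4, a factor of endothelial and smooth muscle state. Mef2d, a muscle factor, had 19.6 at 3411 bp upstream, Irx5, of the repolarisation gradient, 17.2 at 99155 bp and Tead4, a Hippo pathway factor, 16.1 at 26734 bp.

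Id1, Id2 and Id3, whose products block bHLH factors, were each nearest to a member. Id2 had members of 16.8 and 9.63 at 2591 and 4657 bp upstream, Id1 had 11.3 at 2105 bp and Id3 had 9.02 at 2331 bp downstream. Meis1, a TALE homeobox factor, had 12.6 and 6.38 at 7153 and 1491 bp upstream, and Meis2 had 4.01 at 8505 bp downstream. Nkx2-5, the early cardiac homeobox factor, had 3.28 at 1443 bp downstream (chromosome 17, 26837221) and 11.8 at an end of the gene. All 10 genes had a summit at an end as well, as had the nearest protein-coding gene of 71.6% of all members. Of all protein-coding genes 48.4% have one, and the share over all 69 listed genes was not counted.

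Of 44 BMP and TGF-beta genes, 4 were nearest to a member (9.09%), against 1.02% of all protein-coding genes. For this and the lists below, too, gap length was not matched and enrichment was not tested. Bmpr2, a BMP receptor gene, had 35.4 and 4.02 at 1156 and 1587 bp upstream, Smad7, of an inhibitory Smad, 21.1 at 24475 bp, Ski, a Smad corepressor, 14.6 at 3151 bp downstream and Smad4, of the common Smad, 3.33 at 11632 bp. Of 25 Notch genes, 3 were (12.0%). Hes1, a Notch target, had 37.2 and 29.3 at 1770 and 1023 bp. Dll4 had 7.51 at 2280 bp downstream and Dll1, another Notch ligand gene, 5.59 at 3768 bp upstream. Hes1 and Bmpr2 had the highest scores of all listed genes, and both had a higher one at an end of the gene, 69.6 and 76.6.

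Smaller shares were found on the other lists, 3.23% of Wnt, 6.06% of Fgf and 2.33% of contractile and calcium handling genes. Of 62 Wnt genes, Wnt2b had 11.4 at 6267 bp upstream and Wnt7b 7.49 at 71959 bp. Of 33 Fgf genes, Dusp6, a feedback phosphatase, had 16.3 at 1542 bp upstream, and Etv1 is given above. Of 43 contractile and calcium handling genes, Myl3, of a cardiac myosin light chain, had 15.8 at 11998 bp downstream, with 8.58 at an end of the gene.

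None of the 37 Sin3 complex genes was the nearest gene of a member. The count was also 0 for the 15 hedgehog genes, the 23 endothelial and endocardial, the 20 epicardial, valve and fibroblast, the 27 blood, the 15 liver and the 23 neuronal and neural crest genes, and the 39 Hox genes. Of all protein-coding genes, 1.02% were the nearest gene of a member. Over all lists, 22 of 471 genes (4.67%) were nearest to 27 members. Of the 25 of these whose gene had a summit at an end, 21 scored lower than the highest such summit (84.0%). This is near the 84.5% of all members with such a gene, so it is not particular to the listed genes.

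**Figure D5:**
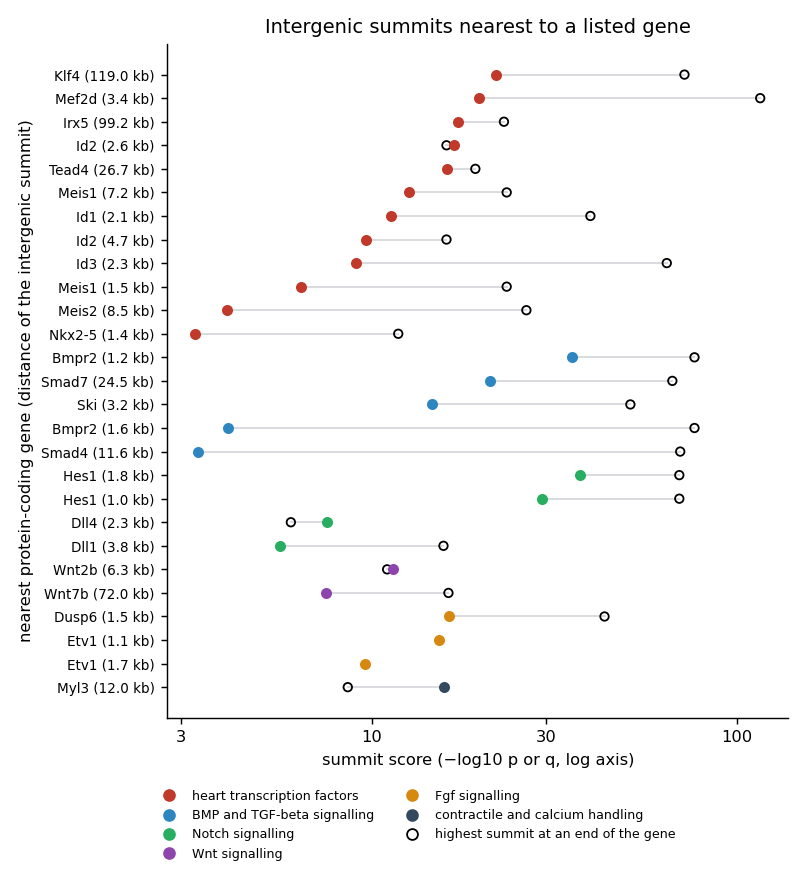
Score (x axis, −log10 p or q, log axis) of each of 27 intergenic summits nearest to a listed gene (filled circles, coloured by list, distance from the gene in kb after its name) and of the highest summit at an end of that gene (open circles). The open circle is to the right for 21 of the 25 that have one (84.0%, against 84.5% of all members with such a gene), and Etv1 has none.

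By chromosome, members numbered from 4 on chromosome 19 to 23 on chromosome 8, and there was none on Y, which had no summit. Per Mb of sequence more than 1000 bp from genes, chromosome 11 had the most, 0.421, and X the fewest of those with any, 0.0635. The value was 0.193 over all 1353 Mb, which include 86.8 Mb of Y. As a share of the summits of a chromosome, members made up 2.73% on chromosome 8 and 0.810% on chromosome 19. On chromosomes 11 and X that share was 1.65% and 1.67%, near the 1.75% of all nuclear summits. Assembly gaps were not known and are counted in these lengths.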

How the data were processed

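The submitters' processing notes name Bowtie 1.1.2, MACS2 2.1.0.20140616 and build GRCm38 (mm10). Settings and thresholds are not stated there. The libraries were prepared with a Diagenode transcription factor ChIP kit and NEBNext reagents, per the labels' protocols. The authors deposited 14886 entries of 1 base with a score, taken from its values as −log10 p or −log10 q. Which it is could not be settled. The 5 mitochondrial entries were left out. Read depth is unknown.

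Positions were compared with a RefSeq table of GRCm38.p6. Of 49997 genes, 49599 were used: 398 were left out, being mitochondrial, on no named chromosome, without coordinates (4) or placed before 3 Mb on any chromosome but Y. Strands came from RefSeq promoter and microRNA tables, which held 17491 of the 21775 protein-coding genes. A summit took the nearest gene by its boundaries. Wilson and order-statistic intervals are 95%. Position and distance steps were tested on simulated data (500 genes). Python 3.11.15, numpy 2.4.6, scipy 1.17.1 and pandas 2.3.3 were used, with matplotlib 3.10.9.

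Members, the 14 gene lists and the rule for named summits were chosen with earlier results of these data known. The rule took the 15 highest and 3 lowest scores, the 5 farthest members, 5 on each side of the margin, up to 6 members per list and up to 8 groups, and the chromosomes with most and fewest. Other genes were named after their values were seen. Sequence of the summits was not analysed here, and 2 members are not reported singly here.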

Additional observations from a re-analysis of the deposited data

How the results depend on the processing

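Without replicates or read counts, only the rule and the annotation could be varied. No paired analysis was possible because each group holds 1 library. The number of members was 415 with a margin of 500 bp, 116 with 5000 bp, 688 against protein-coding genes only and 466 against genes with a curated transcript. The median distance was 1770, 8042 and 11974 bp with margins of 500, 2500 and 5000 bp, and 10268 and 7140 bp against the protein-coding and the curated genes. The median score stayed between 12.4 and 13.3 under each of these settings, with summits merged within 500 bp, without the X chromosome and, chosen after seeing the data, without the 2 members that may lie at a gene with no coordinates. Among summits at or above the median score of the list, 39 of 7442 were intergenic (0.524%, median score 48.9), and among those at or above its upper quartile 13 of 3728 (0.349%, median score 99.2). By construction 100% of both sets reach the list median. To the nearest protein-coding gene, 67 members were 20 to 100 kb away and 11 over 100 kb. Another summit lay within 2500 bp for 94. Counting only genes within 50000 bp lowered the heart transcription factor count from 12 to 10 and the Wnt count from 2 to 1. Over all lists the count fell from 27 to 24. Taking either flanking protein-coding gene raised the heart transcription factor count from 12 to 14 and the Wnt count from 2 to 4. The Fgf count rose from 3 to 5, the hedgehog count from 0 to 1 and that over all lists from 27 to 34.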

Other observations

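Immediate early genes, which are switched on within minutes of a stimulus, and feedback genes of signalling pathways stood next to several intergenic summits. They were named after the values were seen, so their number is no finding. Fos had 3 members, of 10.8 at 1508 bp upstream and of 23.7 and 23.2 at 8618 and 9060 bp downstream (chromosome 12). Fosb had 20.6 at 9889 bp upstream, Fosl2 6.91 at 2604 bp upstream and Egr3 12.1 at 2562 bp. Nr4a3, of an orphan nuclear receptor, had 34.4 and 7.23 at 1990 and 1574 bp upstream. Ier2 had 15.1 at 1535 bp and a lower one at 2439 bp, Gadd45b 11.5 at 1164 bp upstream and the phosphatase gene Dusp4 9.60 at 2432 bp. Socs3, of a cytokine signalling inhibitor, had 8.94 and 5.79 at 16367 and 2619 bp downstream, and Spred2, of a Ras pathway inhibitor, 37.3 at 4030 bp upstream.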
